A study of Mus musculus with 50 samples.

Results

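The neutrophil genes described here are S100a8, S100a9, Camp, Ngp, Ltf, Lcn2, Cxcr2, Csf3r, Mpo and Retnlg. They were chosen by name, and all 10 were found by gene symbol among the 37701 genes of the expression table. All 10 also had a mean of at least 0.5 RPKM, a read count corrected for sequencing depth and gene length, and were therefore among the 16733 genes tested. Expression was measured in 50 mammary gland (MG) tumors of female p53R270H/+WAPCre mice, 10 per treatment group. From the age of 8 weeks each group received 1 agent (vehicle, insulin, glargine, X10 or IGF1) under the skin on alternate days. Dosing went on up to the appearance of a tumor, which was collected at 1 cm3, a day (24 h) past the final dose. All groups carried the same heterozygous p53 point mutation, which Cre switches on under the whey acidic protein promoter, thus in milk-producing mammary epithelium and not in blood cells. Glargine and X10 are analogues of the hormone insulin, and IGF1 is a related growth factor. The study states that the sequenced tumors were EMT-like (EMT, epithelial to mesenchymal transition) and had a latency near the median of their group. In its clustering of EMT genes, some of them had high epithelial and low mesenchymal expression, and none of these was an IGF1 tumor. The control tumors carry Untreated in their titles and were taken as the vehicle group that the series' design text names. Tumors are named by their titles, in which the number is that of the mouse. Mouse numbers and sequence numbers run group by group, so an effect of such an order cannot be told apart from treatment.

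Neutrophils are short-lived white blood cells that mature in the bone marrow and enter tissue from the blood. Their granule proteins are made in a fixed order during maturation. Mpo belongs to the first, the azurophil granules of promyelocytes, while Camp, Ngp, Ltf and Lcn2 follow at later stages. S100a8, S100a9, Cxcr2 and Csf3r transcripts remain abundant in mature cells in blood and tissue. In tumors, neutrophils are attracted by chemokines that bind CXCR2, and their production is driven by granulocyte colony-stimulating factor, the ligand of CSF3R. Lcn2 and Ltf are not restricted to neutrophils, since glandular epithelium, including that of the mammary gland, also makes them. S100a8 and S100a9 are known to be made by epithelium too. These are bulk tumor values, in which fewer neutrophils and less RNA per neutrophil cannot be told apart.

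In short, 3 patterns were seen. S100a8, S100a9, Cxcr2 and Csf3r rose and fell together from tumor to tumor. Camp and Ngp were near the detection limit in many tumors and high in a few, while Ltf and Lcn2 followed each other and epithelial genes. No member passed the test in any comparison between treatments, and the difference between single tumors of a group was larger than that between groups.

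The upstream sequences of 3 pairs are shown because their members followed each other across tumors, as described below. The windows are from RefSeq on GRCm38.p6, printed 5′ to 3′ on the strand of the gene, from 250 bases before the annotated start to 30 bases after it. Capitals mark matches to TTNNGCAA (a core of C/EBP sites, named after a family of factors that drive granule genes), AGGAAGT (a core of PU.1 sites) or TATAAA (the core letters of a so-called TATA box), which were searched on both strands. S100a8 and S100a9 lie 22.6 kb apart on chromosome 3 and are read from opposite strands.
S100a8, chr3:90668821-90669100, plus strand: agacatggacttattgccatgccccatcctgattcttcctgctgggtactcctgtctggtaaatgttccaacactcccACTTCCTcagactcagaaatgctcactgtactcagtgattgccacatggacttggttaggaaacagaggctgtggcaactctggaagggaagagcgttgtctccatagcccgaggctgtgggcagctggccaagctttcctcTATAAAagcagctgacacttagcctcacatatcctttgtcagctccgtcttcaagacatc
S100a9, chr3:90695692-90695971, minus strand: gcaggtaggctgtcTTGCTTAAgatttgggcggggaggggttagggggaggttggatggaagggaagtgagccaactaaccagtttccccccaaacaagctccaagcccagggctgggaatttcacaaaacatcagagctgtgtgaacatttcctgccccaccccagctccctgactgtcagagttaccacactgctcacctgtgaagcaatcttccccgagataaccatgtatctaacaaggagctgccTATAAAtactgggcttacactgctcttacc
In S100a8 the TATA box starts 30 bases before the annotated start, and a PU.1 core, read on the opposite strand, starts at base -172. In S100a9 a C/EBP core on the opposite strand starts at base -236, and TATAAA begins at the annotated start itself. Camp and Ngp lie 570.1 kb apart on chromosome 9, with Ltf 596.3 kb beyond Ngp.
Camp, chr9:109849427-109849706, minus strand: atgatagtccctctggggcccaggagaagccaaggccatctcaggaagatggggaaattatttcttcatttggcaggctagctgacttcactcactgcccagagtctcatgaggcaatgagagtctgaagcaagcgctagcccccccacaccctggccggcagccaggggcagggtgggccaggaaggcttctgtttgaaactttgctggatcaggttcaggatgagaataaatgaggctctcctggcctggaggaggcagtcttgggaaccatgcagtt
Ngp, chr9:110419558-110419837, plus strand: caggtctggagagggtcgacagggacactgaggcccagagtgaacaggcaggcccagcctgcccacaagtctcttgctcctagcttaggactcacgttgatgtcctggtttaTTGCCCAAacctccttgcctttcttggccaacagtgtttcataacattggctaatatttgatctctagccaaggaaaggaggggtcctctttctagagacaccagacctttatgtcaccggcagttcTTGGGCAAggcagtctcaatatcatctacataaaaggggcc
Ltf, chr9:111019042-111019321, plus strand: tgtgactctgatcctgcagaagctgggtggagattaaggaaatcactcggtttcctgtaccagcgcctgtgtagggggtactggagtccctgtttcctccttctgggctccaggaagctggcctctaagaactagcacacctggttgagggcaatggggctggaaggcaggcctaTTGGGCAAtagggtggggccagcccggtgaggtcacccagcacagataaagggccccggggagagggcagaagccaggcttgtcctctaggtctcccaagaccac
Lcn2, chr2:32387710-32387989, minus strand: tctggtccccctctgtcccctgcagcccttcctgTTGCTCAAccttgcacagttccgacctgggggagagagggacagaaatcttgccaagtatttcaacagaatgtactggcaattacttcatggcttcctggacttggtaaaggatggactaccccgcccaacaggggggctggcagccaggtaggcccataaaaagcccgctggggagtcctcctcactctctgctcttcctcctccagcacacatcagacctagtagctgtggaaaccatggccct
Ngp holds a pair of C/EBP cores, at bases -138 and -11, Ltf holds one at base -75 with the same letters as the second of Ngp (TTGGGCAA), and Lcn2 holds one at base -216. None of these letters occur in the Camp window. Over all 10 members (windows of 300 bases), the C/EBP core was present in 5, against 10.8% of 32851 promoter windows, the PU.1 core in 2, against 9.4%, and the TATA box in 2, against 13.6%. These matches describe letters only.

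S100a8 and S100a9 code for the subunits of calprotectin, a calcium-binding complex that makes up much of the neutrophil cytosol. S100a8 (ENSMUSG00000056054, chr3:90668978-90670035) was between 8.09 and 1013 RPKM in the vehicle tumors, with a median of 103. The insulin tumors were between 2.93 and 94.6 RPKM with a median of 38.5, and the glargine tumors between 4.08 and 130 with a median of 54.2. The X10 tumors were between 3.44 and 313 RPKM with a median of 62.8, and the IGF1 tumors between 4.49 and 183 with a median of 27.9. The groups overlapped throughout, but all 10 insulin tumors, 9 of 10 glargine tumors, 8 of 10 IGF1 tumors and 6 of 10 X10 tumors lay below the vehicle median. On the log2(RPKM + 0.5) scale S100a8 differed from vehicle by -1.53 (SE 0.80) in insulin tumors and by -1.52 (SE 0.80) in IGF1 tumors. Neither passed the limma test after Benjamini-Hochberg adjustment over all genes (adjusted p = 0.470 and 0.601). With a score of epithelial marker genes as a covariate the insulin estimate was -0.96 and the IGF1 estimate -0.49.

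S100a9 (ENSMUSG00000056071, chr3:90692632-90695721) showed the same picture. It was between 16.4 and 1431 RPKM in vehicle tumors (median 96.3), between 3.20 and 151 in insulin tumors (median 44.9) and between 5.98 and 203 in glargine tumors (median 70.8). In X10 tumors it was between 5.32 and 465 RPKM (median 60.1), and in IGF1 tumors between 4.56 and 253 (median 41.0). The lowest IGF1 tumors thus fell under the vehicle range, 4 of 10 for S100a9, while no treated tumor exceeded the highest vehicle tumor. The insulin tumors differed from vehicle by -1.32 (SE 0.78, limma adjusted p = 0.531), and by -0.88 without vehicle tumor Untreated_174.

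**Figure D1:**
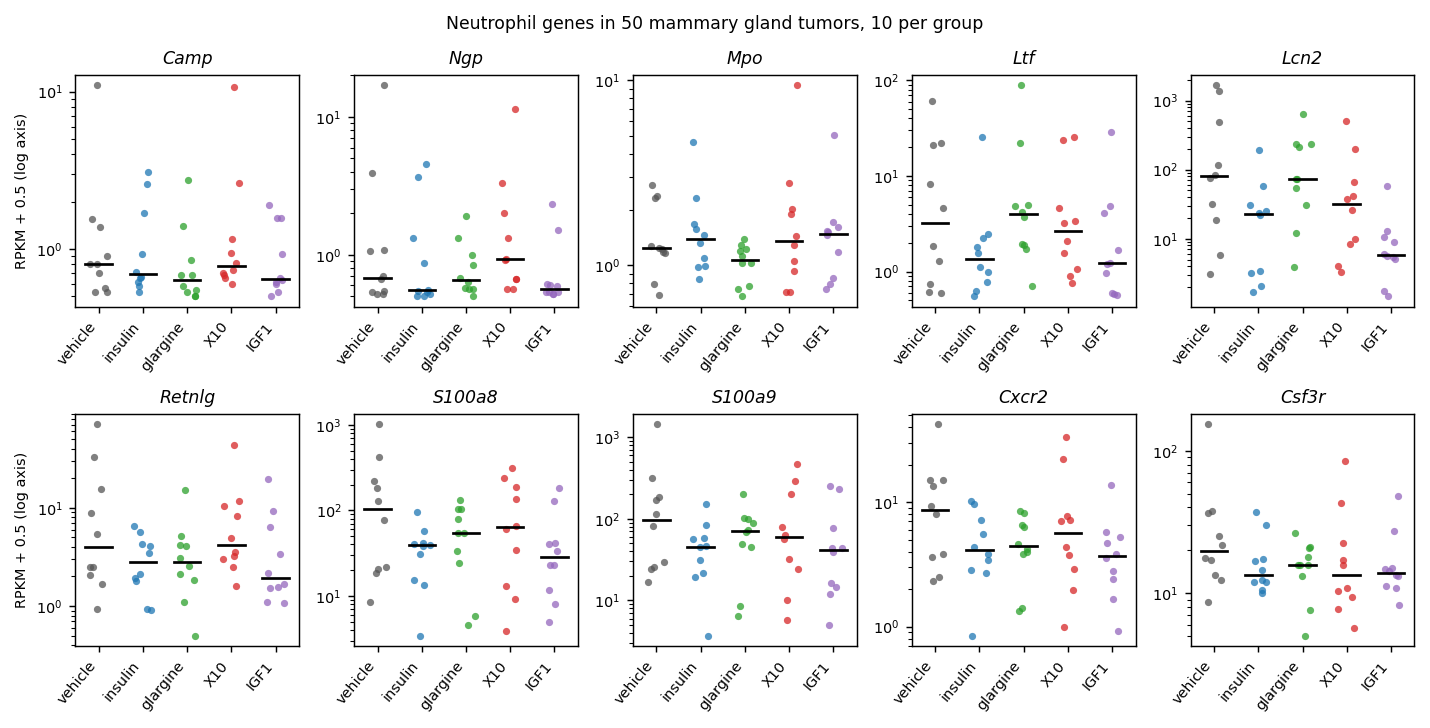
RPKM + 0.5 on a log axis of the 10 neutrophil genes in each tumor, 10 tumors per treatment group; 1 point is 1 tumor and the bar is the group median. The groups overlap for every gene, and single tumors, such as the vehicle tumor at 153 RPKM of Csf3r, stand far above their group.

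Cxcr2, the receptor for neutrophil-attracting chemokines (ENSMUSG00000026180, chr1:74153989-74161246), was between 1.85 and 41.7 RPKM in vehicle tumors, with a median of 8.16. The medians were 3.60 RPKM in insulin tumors (0.346 to 9.81), 3.93 in glargine tumors (0.830 to 8.05), 5.20 in X10 tumors (0.491 to 33.0) and 3.18 in IGF1 tumors (0.415 to 13.2). All 10 glargine tumors and 9 of 10 IGF1 tumors lay below the vehicle median, with overlapping ranges. In each of these groups 2 tumors lay below the lowest vehicle tumor, and none lay above the highest. Cxcr2 differed between IGF1 and vehicle tumors by -1.15 (SE 0.52) on the log2 scale, at an unadjusted limma p of 0.0321 that did not pass the adjustment over all genes (adjusted p = 0.512). The estimate was -0.42 with an epithelial marker score as a covariate. Csf3r, the receptor for granulocyte colony-stimulating factor (ENSMUSG00000028859, chr4:126024550-126044440), varied less than the other genes of this group. Its medians were 19.2 RPKM in vehicle (8.11 to 153), 12.9 in insulin (9.47 to 36.4), 15.2 in glargine (4.52 to 26.1), 12.8 in X10 (5.16 to 84.3) and 13.3 in IGF1 tumors (7.73 to 47.5). All 4 treatment medians of Csf3r lay below the vehicle median, with overlapping groups. The glargine tumors differed from vehicle by -0.69 (SE 0.40, adjusted p = 0.811 with limma), and by -0.39 without vehicle tumor Untreated_174.

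Among the granule genes that follow Mpo in maturation, Camp and Ngp were low. Camp, which codes for the antimicrobial peptide cathelicidin (ENSMUSG00000038357, chr9:109847379-109849617), had a median of 0.200 RPKM over the 50 tumors, which corresponds to 5 reads, and at most 3 reads in 19 tumors. Its vehicle tumors ranged from 0.033 to 10.5 RPKM (median 0.300), insulin from 0.033 to 2.58 (median 0.191), glargine from 0 to 2.25 (median 0.133), X10 from 0.10 to 10.3 (median 0.275) and IGF1 from 0 to 1.41 (median 0.142). Ngp, neutrophilic granule protein (ENSMUSG00000032484, chr9:110419747-110423012), had at most 3 reads in 20 of the 50 tumors. Its medians were 0.185 RPKM in vehicle (0.016 to 16.5), 0.0535 in insulin (0 to 4.05), 0.161 in glargine (0 to 1.41), 0.427 in X10 (0.066 to 11.0) and 0.0655 in IGF1 tumors (0.016 to 1.83). For both genes the same 2 tumors, vehicle tumor Untreated_194 and tumor X10_105, were the highest. These 2 tumors were at 10.5 and 10.3 RPKM of Camp and at 16.5 and 11.0 RPKM of Ngp, while the next highest values were 2.58 and 4.05, both in tumor insulin_14. These low read numbers limit the precision of both genes.

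Mpo, myeloperoxidase, is the main enzyme of the azurophil granules (ENSMUSG00000009350, chr11:87793581-87804413). It was between 0.179 and 8.93 RPKM, with 4 to 317 reads per tumor and a median of 22. The group medians were close together, at 0.736 RPKM in vehicle (0.193 to 2.23), 0.881 in insulin (0.344 to 4.13), 0.571 in glargine (0.179 to 0.880), 0.860 in X10 (0.220 to 8.93) and 0.984 in IGF1 tumors (0.248 to 4.59). Only the glargine group had no tumor above 0.880 RPKM, and the differences from vehicle were between -0.42 and 0.21 on the log2 scale, with an SE of 0.34 (lowest limma adjusted p = 0.854). Elane, another azurophil granule gene, was at 0.137 RPKM on average, while Prtn3 averaged 3.15 RPKM with a highest value of 45.0.

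Ltf codes for the iron-binding protein lactoferrin, which is found in neutrophil granules and in milk (ENSMUSG00000032496, chr9:111019271-111042767). It ranged from 0.051 to 88.6 RPKM over all tumors, and its group medians were 2.72 in vehicle (0.095 to 60.3), 0.854 in insulin (0.051 to 25.2), 3.46 in glargine (0.201 to 88.6), 2.17 in X10 (0.266 to 25.2) and 0.720 in IGF1 tumors (0.069 to 28.4). The insulin and IGF1 medians were the lowest, and every group spanned more than the distance between the medians. Lcn2, lipocalin 2, binds bacterial siderophores (ENSMUSG00000026822, chr2:32384633-32388252). It was between 2.56 and 1674 RPKM in vehicle tumors, with a median of 79.6. The other medians were 22.0 RPKM in insulin (1.19 to 191), 72.6 in glargine (3.46 to 642), 31.4 in X10 (2.78 to 504) and 5.36 in IGF1 tumors (0.967 to 57.8). All 10 IGF1 tumors lay below the vehicle median, which was 14.9-fold above theirs, while 2 of them lay below the lowest vehicle tumor.

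Lcn2 had the largest estimates among the members against vehicle in insulin, X10 and IGF1 tumors, and the smallest in glargine tumors. It differed from vehicle by -3.55 (SE 1.01) in IGF1 tumors, with an unadjusted p of 0.000966 and an adjusted p of 0.277 with limma. In insulin tumors the difference was -2.57 (SE 1.01, adjusted p = 0.361), in X10 tumors -1.49 (SE 1.01, adjusted p = 0.60) and in glargine tumors -0.14 (SE 1.01, adjusted p = 0.986). X10 and IGF1 tumors together differed from the other 30 tumors by -1.62 (SE 0.65, adjusted p = 0.331). The mammary epithelium markers (Krt8, Krt18, Epcam, Cdh1, Krt7 and Cldn4) were also lowest in IGF1 tumors. Their summed level had a median of 383 RPKM in vehicle (21.4 to 7243), 309 in X10 (50.8 to 2485), 272 in glargine (141 to 600.2), 263 in insulin (57.6 to 576) and 134 in IGF1 tumors (9.80 to 693). The order of the other groups differed from that of Lcn2, with insulin and glargine close together. All 6 markers had lower estimates in IGF1 than in vehicle tumors, where 46.6% of all genes did. At an unadjusted limma p under 0.05 were 4 of 6 (8.84% of all genes), and none of the 6 passed the adjusted test (0.00598% of all genes). With the mean z-score of these 6 genes as a covariate the Lcn2 estimates were -1.35 in IGF1 and -1.35 in insulin tumors, the glargine estimate was 0.61, and that of X10 and IGF1 against the other groups was -0.95.

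Retnlg, resistin-like gamma, is made in bone marrow and by neutrophils (ENSMUSG00000022651, chr16:48872621-48874496). Its medians were 3.46 RPKM in vehicle (0.428 to 69.97), 2.28 in insulin (0.411 to 5.95), 2.30 in glargine (0 to 14.6), 3.70 in X10 (1.09 to 43.2) and 1.44 in IGF1 tumors (0.576 to 19.0). The X10 median of Retnlg was the highest and the IGF1 median the lowest, with overlapping ranges. The insulin tumors differed from vehicle by -1.13 (SE 0.64, limma adjusted p = 0.507), and by -0.73 without vehicle tumor Untreated_174.

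**Figure D2:**
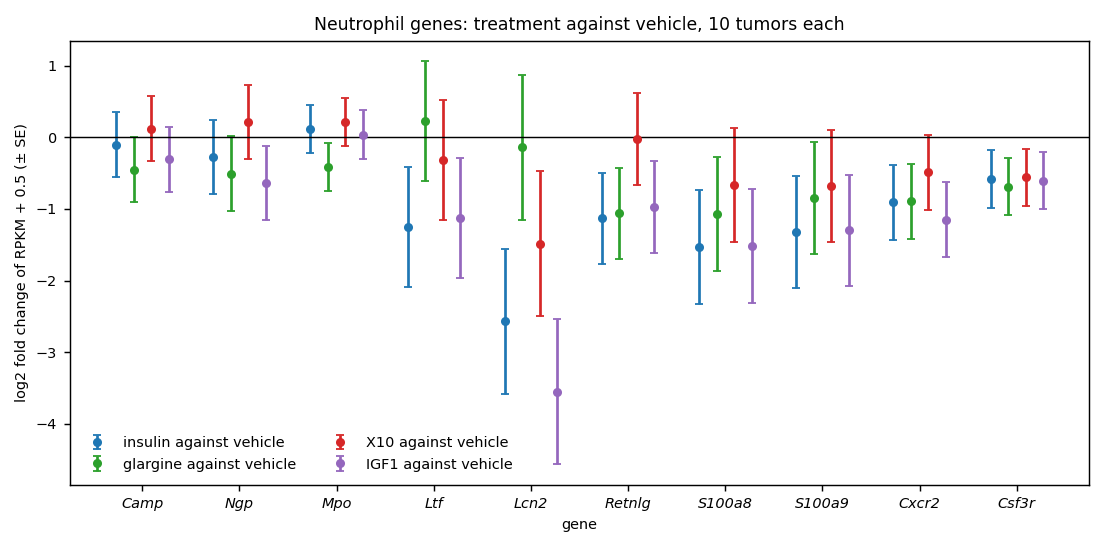
Log2 fold change of RPKM + 0.5 against vehicle, with its SE, for each neutrophil gene and treatment (10 tumors per group, limma). The Lcn2 estimates for IGF1 (-3.55) and insulin (-2.57) are the lowest, and no estimate passed the test after adjustment over all genes.

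Between insulin and vehicle tumors, 0 of 10 members passed the limma test at an adjusted p under 0.05, where 0% of all tested genes passed. The same count was 0 of 10 for glargine (0% of all genes), 0 of 10 for X10 (0.0657%), 0 of 10 for IGF1 (0.00598%) and 0 of 10 for X10 and IGF1 against the other groups (0.155%). In the test for any difference among the 5 groups, 0 of 10 members passed as well (0.102% of all genes), and the lowest adjusted p was 0.179, for Lcn2. At an unadjusted p under 0.05 the counts were 1 of 10 for insulin (Lcn2), 0 of 10 for glargine, 0 of 10 for X10, 2 of 10 for IGF1 (Lcn2 and Cxcr2), 1 of 10 for X10 and IGF1 together (Lcn2) and 1 of 10 for any difference (Lcn2). The shares of all genes at that limit were 11.1%, 6.23%, 11%, 8.84%, 10.5% and 13.1%, so the members' counts were near the background. With an epithelial score (each tumor's mean z-score of the mammary epithelium markers) as a covariate the 6 counts were 0, 0, 0, 0, 1 and 1 of 10 in the same order, and with library size as a covariate they were 3, 1, 0, 2, 1 and 1. With limma voom on recovered reads the members' adjusted count was also 0 in each of these comparisons.

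Estimates below 0 were obtained for 9 of 10 members with insulin (45.5% of all genes), 9 of 10 with glargine (45.9%), 7 of 10 with X10 (55.6%), 9 of 10 with IGF1 (46.6%) and 6 of 10 with X10 and IGF1 against the other groups (56.4%). The median estimate of the members was -1.02 with insulin, -0.60 with glargine, -0.40 with X10 and -1.05 with IGF1, against 0.03, 0.02, -0.03 and 0.02 over all genes tested. With the epithelial score as a covariate the members' medians were -0.49, -0.50, -0.18 and -0.25, and 1 of 10 members had an estimate below 0 for X10 and IGF1 against the other groups. The 4 comparisons with vehicle share the vehicle tumors, among which vehicle tumor Untreated_174 was the highest of the 50 tumors for 5 members. Because 33 of the 45 pairs of members were correlated across tumors, as given below, their counts are not independent of each other.

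Between the compounds, 0 of 10 members passed the limma test in any of the 6 pairs. All genes called made up 0% for glargine against insulin, 0.102% for X10 against insulin, 0.00598% for IGF1 against insulin, 1.78% for X10 against glargine, 0% for IGF1 against glargine and 0% for IGF1 against X10. At an unadjusted p under 0.05, Lcn2 was the member that differed between glargine and insulin, between IGF1 and glargine and between IGF1 and X10. Its estimate was -3.42 (SE 1.01) for IGF1 against glargine, with an adjusted p of 0.555. The shares of all genes at that limit were 3.96%, 6.98% and 11.7% in these 3 pairs. No member was at that limit for X10 against insulin (11.3% of all genes), IGF1 against insulin (7.3%) or X10 against glargine (11.6%). For IGF1 against X10 the count of members at that limit was 0 in limma voom and in the fits with the epithelial score or library size added. For X10 against glargine it was 2 with the epithelial score and 1 with library size. Estimates below 0 were obtained for 0 of 10 members for X10 against insulin (61.4% of all genes), 2 of 10 for X10 against glargine (57.1%), 4 of 10 for glargine against insulin (51.7%), 6 of 10 for IGF1 against insulin (52.6%), 6 of 10 for IGF1 against glargine (49.5%) and 10 of 10 for IGF1 against X10 (41.7%). With the epithelial score as a covariate these counts were 1, 2, 6, 4, 3 and 7 of 10 in the same order. The members' median estimate went with it from -0.20 to 0.23 for IGF1 against glargine, from -0.05 to 0.14 for IGF1 against insulin, from 0.04 to -0.12 for glargine against insulin and from -0.74 to -0.20 for IGF1 against X10. These pairs share tumors with each other. These misses do not show that the compounds act alike, because the SE of a member in such a pair was between 0.34 and 1.01 on the log2 scale.

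The spread between tumors was the main feature of these genes. The SD of log2(RPKM + 0.5) over the 50 tumors was 2.64 for Lcn2, 1.96 for Ltf, 1.86 for S100a8, 1.79 for S100a9 and 1.51 for Retnlg, and it was 0.77 for Mpo, the least variable member. The median over all tested genes was 0.419, and Lcn2 varied more than 99.9% of them. Treatment groups accounted for 27.7% of the variance of Lcn2 and for 4.2% (Camp) to 11.9% (Retnlg) in the other members, against a median of 9.29% over all tested genes. Vehicle tumor Untreated_174 held 21.9% of the summed RPKM of S100a8 over the 50 tumors and 25.6% of that of S100a9, and was the highest tumor for S100a8, S100a9, Cxcr2, Csf3r and Retnlg.

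Levels between genes depended on the length used. By mean RPKM the order was Lcn2 (136.3), S100a9 (112), S100a8 (92.6), Csf3r (21.1), Ltf (7.63), Retnlg (6.602), Cxcr2 (6.53), Mpo (1.12), Ngp (1.09) and Camp (0.880). The length by which the reads had been divided, read from the steps between values, was 727 bases for Mpo, where GENCODE M21 has 3424 exonic bases, and 5255 bases for Cxcr2, where it has 3048. With the GENCODE lengths the mean level per kilobase was highest for S100a9 (221), followed by S100a8 (52.3), Lcn2 (43.0), Csf3r (23.8), Cxcr2 (11.3), Retnlg (6.77), Ltf (6.07), Ngp (1.08), Camp (0.698) and Mpo (0.238). The first 4 and the last 3 places are thus held by the same genes on both scales. The length also sets the weight of the pseudocount and of the limit of 0.5 RPKM, which Mpo would not reach with its GENCODE length.

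Across the 50 tumors, 33 of the 45 pairs of members were correlated at an adjusted p under 0.05 (two-sided permutation tests on Pearson's r with 100000 resamples, Benjamini-Hochberg over the 45 pairs), all with a positive r. With Spearman's rho 31 pairs passed. S100a8 and S100a9 were the closest pair, with r = 0.956 and rho = 0.951 (permutation p = 1e-05 for both, the smallest these resamples can give, adjusted p = 4.1e-05 and 3.7e-05), and r = 0.945 without the 2 tumors farthest from the median of S100a8. All 6 pairs among S100a8, S100a9, Cxcr2 and Csf3r had an r between 0.839 and 0.956. S100a8 with Cxcr2 had r = 0.899 and rho = 0.880, and Cxcr2 with Csf3r had r = 0.880 and rho = 0.882. With the treatment group means removed these values were 0.953 for S100a8 with S100a9, 0.892 for S100a8 with Cxcr2 and 0.883 for Cxcr2 with Csf3r.

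Outside the pairs among S100a8, S100a9, Cxcr2 and Csf3r, Camp and Ngp were the closest by Pearson's r. They had r = 0.872 and rho = 0.646 (adjusted permutation p = 4.1e-05 and 3.7e-05), and r = 0.755 without the 2 tumors farthest from the median of Camp. By rho, Ltf with Lcn2 (0.812) and Ngp with Retnlg (0.777) were closer. The relation of Camp and Ngp to the mature genes was looser by r, while by rho Ngp was nearly as close to S100a8 as to Camp. Camp with S100a8 had r = 0.255 and rho = 0.330 (adjusted permutation p = 0.0974 and 0.0289), and Camp with Cxcr2 r = 0.138 and rho = 0.202 (adjusted permutation p = 0.390 and 0.205). Ngp with S100a8 had r = 0.473 and rho = 0.623 (adjusted permutation p = 0.00108 and 3.7e-05). Tumor X10_100 is an example, with 313 RPKM of S100a8 and 33.0 RPKM of Cxcr2 but 3 reads of Camp. Retnlg stood between the groups. It was correlated with 8 of the other 9 members, most with Ngp (r = 0.669, rho = 0.777) and then with S100a9 (r = 0.622, rho = 0.645).

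Mpo was not correlated with S100a8, S100a9, Cxcr2 or Csf3r (r between -0.0929 and -0.0436). Its r was 0.392 with Camp and 0.352 with Ngp (adjusted permutation p = 0.0125 and 0.0218), with a rho of 0.191 and 0.122 that did not pass. Without the 2 tumors farthest from the median of the partner gene the r values were 0.223 and 0.197, thus these relations rest on those tumors.

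**Figure D3:**
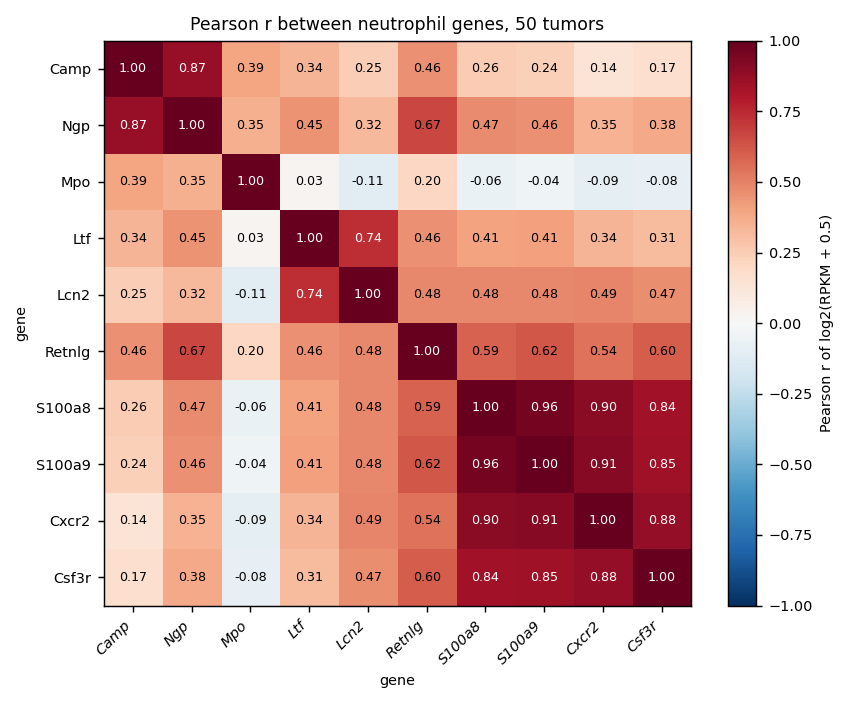
Pearson's r of log2(RPKM + 0.5) between each pair of the 10 neutrophil genes over 50 tumors. The block of S100a8, S100a9, Cxcr2 and Csf3r lies between 0.839 and 0.956, Camp with Ngp at 0.872 and Ltf with Lcn2 at 0.742, while Mpo stays between -0.112 and 0.392 with all others.

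Ltf and Lcn2 had r = 0.742 and rho = 0.812 (adjusted permutation p = 4.1e-05 and 3.7e-05), and r = 0.708 without the 2 tumors farthest from the median of Ltf. With the 4 mature neutrophil genes their r was between 0.313 and 0.486. The genes most like a member across tumors, by Spearman's rho over 50 tumors, divided the list in the same manner. For Lcn2 they were Esrp1, a splicing factor of epithelial cells (rho = 0.933), Gyltl1b (0.924) and Fxyd3 (0.915), and for Ltf they were Fxyd3 (0.847), Esrp1 (0.824) and Wfdc18 (0.820). For S100a9 they included S100a8 (0.951) and Stfa2l1 (0.933), a stefin-like protease inhibitor gene. For S100a8 they were S100a9, Stfa2l1 (0.888) and Cxcr2, for Cxcr2 they were Stfa2l1 (0.902), S100a9 and Csf3r, and for Csf3r they were Cxcr2, S100a9 and S100a8. Camp was most like Ngp (0.646), Cnppd1 (0.643) and Tnip1 (0.592), and Ngp most like Retnlg (0.777), Camp and Pglyrp1 (0.632), a granule gene for a peptidoglycan-binding protein. Retnlg was most like Ngp, Ifitm6 (0.740) and 1100001G20Rik (0.698). Mpo was most like Exoc3l2 (0.629), Aplnr (0.596), a receptor of endothelial cells, and Gramd3 (0.595).

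The other genes most like the mean z-score of all members included Stfa2l1 (rho = 0.826), BC100530 (0.824), Hdc (0.800), which makes histamine, BC117090 (0.764), Mxd1 (0.763), 1100001G20Rik (0.759), Ifitm1 (0.753), Ankrd22 (0.752) and Cd177 (0.739), a neutrophil surface protein. Stfa2l1, BC100530 and BC117090 belong to a family of near-identical genes on which reads can be split, so their single values are uncertain. Stfa2l1, BC100530, Hdc and Cd177 are also in the neutrophil gene lists below.

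**Figure D4:**
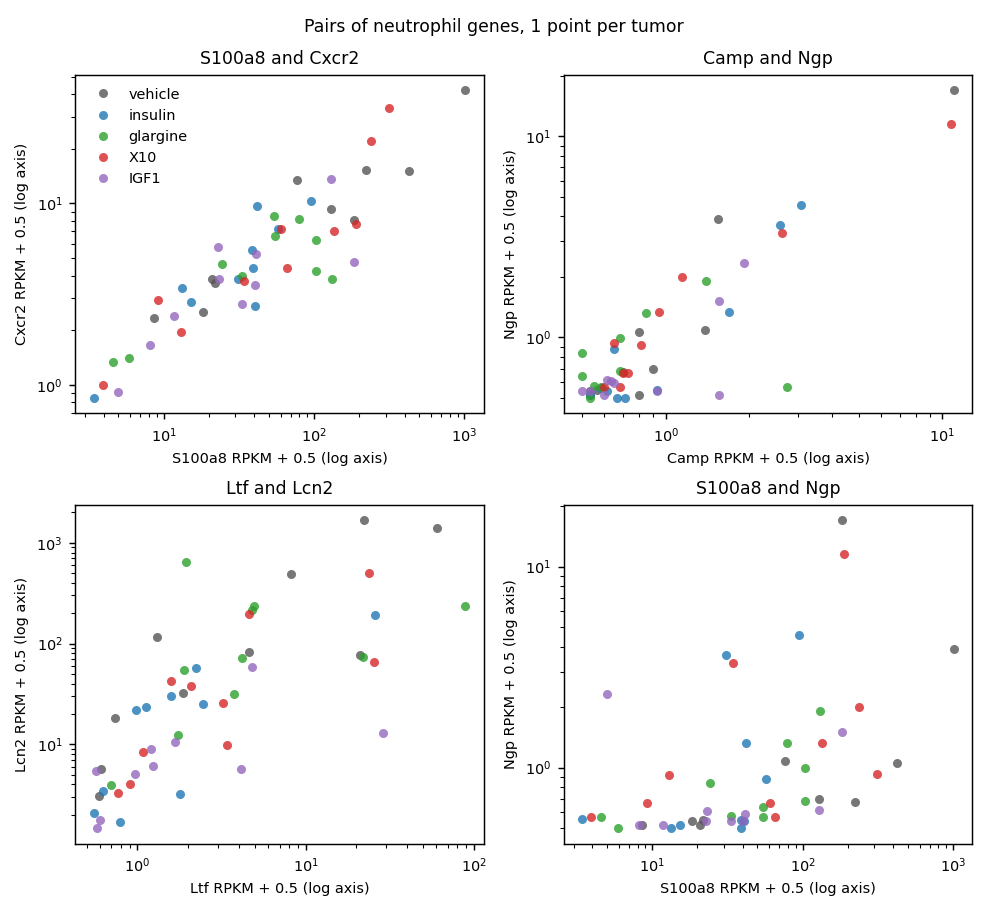
RPKM + 0.5 on log axes of pairs of neutrophil genes, with 1 point per tumor coloured by treatment. S100a8 and Cxcr2 rise together over the 50 tumors (r = 0.899, and 0.892 with group means removed), Camp and Ngp (r = 0.872) are low together in most tumors and high in 2, Ltf and Lcn2 (r = 0.742) spread more widely, and S100a8 with Ngp (r = 0.473) shows tumors high in one gene and low in the other.

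The marker lists place these genes among the cell types of the tumors. A list was scored by the mean z-score of its tested genes, and 25 of 30 relations with 3 lists of neutrophil biology and 31 of 90 relations with 9 lists of other cells passed the permutation test of Pearson's r (adjusted p under 0.05 within each family), against 23 of 30 and 24 of 90 by Spearman's rho. With 13 other genes of mature neutrophils, such as Il1b and Trem1, r was 0.825 for S100a8, 0.865 for S100a9, 0.838 for Cxcr2 and 0.837 for Csf3r (adjusted permutation p = 2.7e-05 for each), with rho between 0.777 for Csf3r and 0.846 for S100a9. Without the 2 tumors farthest from the median score, r was between 0.738 for Csf3r and 0.828 for S100a9. The same list had r = 0.582 with Retnlg, 0.405 with Lcn2, 0.364 with Ngp and 0.339 with Ltf, and its relation with Camp and Mpo did not pass. With 13 other granule genes, r was 0.734 for Retnlg, 0.711 for S100a9, 0.692 for S100a8, 0.656 for Cxcr2, 0.641 for Csf3r, 0.565 for Ngp, 0.507 for Lcn2, 0.457 for Ltf and 0.412 for Camp, all of which passed the permutation test, while Mpo did not. This granule list is not specific, since Mmp9 and Lyz2, its most abundant genes with a mean of 1282 and 1190 RPKM, are also made by macrophages. Ly6g, a defining surface marker of mouse neutrophils, was detected at 0.405 RPKM on average and reached 5.12. Ly6g, Cxcr1 and Mrgpra2b had a mean under 0.5 RPKM and are therefore not in the score of the mature list. The specificity of the mature list for neutrophils was not tested.

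The tested genes of these lists did not pass the limma test in any of the 5 contrasts either, with 0 of 13 granule genes, 0 of 13 mature neutrophil genes and 0 of 11 genes of attraction and growth. At an unadjusted p under 0.05 the counts for these 3 lists were 4 of 13, 2 of 13 and 2 of 11 with IGF1 (8.84% of all genes), 3 of 13, 1 of 13 and 2 of 11 with insulin (11.1%), 1 of 13, 0 of 13 and 2 of 11 with glargine (6.23%) and 1 of 13, 0 of 13 and 0 of 11 with X10 (11%). The median estimates with IGF1 were -0.35 for the granule list, -0.65 for the mature list and -0.60 for the attraction list, next to a median of 0.02 over all genes. In the same order of lists they were -0.09, -0.27 and -0.45 with insulin, -0.09, -0.44 and -0.91 with glargine and 0.17, -0.31 and -0.39 with X10, where 9 of 13 granule genes had an estimate above 0. From the ends of these lists, Mmp9 averaged 1282 RPKM and Cebpe 0.531, Il1b 77.1 and Asprv1 1.83, and Cxcl3 34.7 and Il6 1.01.

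The chemokines that bind CXCR2 were present in the same tumors as their receptor. These 6 ligand and receptor relations were added after the data had been seen. Cxcl1 was between 0.850 and 106 RPKM, with a median of 18.4 in vehicle, 11.1 in insulin, 7.33 in glargine, 7.58 in X10 and 9.58 in IGF1 tumors. Its r with Cxcr2 was 0.863 and its rho 0.753 (adjusted permutation p = 1.2e-05 and 1e-05), and r was 0.825 without the 2 tumors farthest from the median. Cxcl5 (1.03 to 231 RPKM) had r = 0.863 and rho = 0.774, Cxcl3 (0.278 to 558 RPKM) r = 0.833 and rho = 0.792, Ppbp (0.259 to 109 RPKM) r = 0.811 and rho = 0.799, and Cxcl2 (0.266 to 76.1 RPKM) r = 0.747 and rho = 0.673. All of these passed the permutation test. With the treatment group means removed, the 5 values of r with Cxcr2 were between 0.770 for Cxcl2 and 0.868 for Cxcl1. Csf3, the ligand of CSF3R (0.120 to 76.2 RPKM), had r = 0.616 and rho = 0.611 with Csf3r, and r = 0.481 without the 2 tumors farthest from the median. Tumors with more chemokine transcripts thus had more neutrophil receptor transcripts. As for Cxcl1, the vehicle median was the highest for Cxcl5, Ppbp and Csf3. For Cxcl2 the vehicle median was close to that of IGF1 (4.34 and 4.31 RPKM). For Cxcl3 it was 11.8 RPKM in vehicle, below 13.1 in insulin and 12.2 in X10 tumors.

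Among other cell types, the macrophage list (such as C1qa, with a mean of 480 RPKM) went the opposite way. Its r was -0.641 with S100a9, -0.581 with Cxcr2, -0.579 with S100a8 and -0.430 with Csf3r (adjusted permutation p = 0.00015, 0.0002, 0.00015 and 0.00785), and rho was between -0.647 for S100a9 and -0.465 for Csf3r. The summed macrophage level was between 283 and 2279 RPKM in vehicle tumors (median 840) and between 844 and 3017 in IGF1 tumors (median 1437), and all 7 genes had higher estimates in each treatment than in vehicle, with 0 of 7 past the adjusted threshold. At an unadjusted p under 0.05 in limma were 5 of 7 with insulin (11.1% of all genes), 1 of 7 with glargine (6.23%), 1 of 7 with X10 (11%) and 5 of 7 with IGF1 (8.84%), and the estimates of 45.5%, 45.9%, 55.6% and 46.6% of all genes were below 0 in these comparisons. The mammary epithelium list had r = 0.749 and rho = 0.658 with Lcn2 and r = 0.575 and rho = 0.564 with Ltf. It also had r = 0.521 with Cxcr2, 0.489 with S100a9, 0.482 with S100a8 and 0.451 with Csf3r. The values of rho were 0.412, 0.377, 0.359 and 0.341 in the same order, and that of Csf3r did not pass. Retnlg passed by r (0.430) but not by rho (0.251), and Mpo by rho (-0.448) but not by r (-0.261). Milk protein genes had r = 0.565 with Ltf and 0.523 with Lcn2 (rho = 0.642 and 0.589), while their r with S100a8, S100a9, Cxcr2 and Csf3r was between 0.0001 and 0.0281. The squamous epithelium list passed with 9 of 10 members by Pearson's r, between 0.436 for Camp and 0.606 for Retnlg, and with 7 of 10 by Spearman's rho. Its r was 0.563 with S100a8 (rho = 0.533) and 0.537 with S100a9 (rho = 0.458). For Camp rho was 0.031, and r was 0.124 without the 2 tumors farthest from the median score. The share of these cells in the members' values was not tested.

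**Figure D5:**
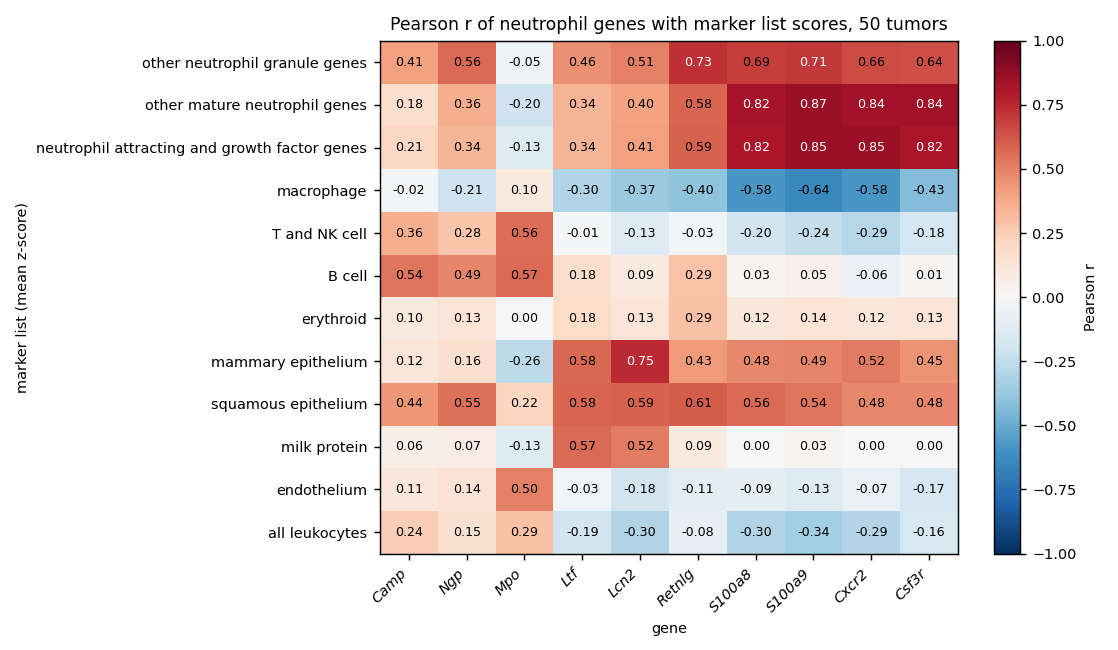
Pearson's r over 50 tumors between each neutrophil gene and the mean z-score of each marker list. S100a8, S100a9, Cxcr2 and Csf3r have an r of 0.817 to 0.865 with other mature neutrophil genes and attracting factors and of -0.641 to -0.430 with macrophage genes, Lcn2 is closest to mammary epithelium (0.749), and Mpo to B cell (0.566), T and NK cell (0.556) and endothelium genes (0.504).

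Camp and Ngp were correlated with B cell genes through a few tumors. The r of Mpo with B cell and with T and NK cell genes fell but stayed positive without the tumors farthest out, where it was not tested. Tumor X10_105 had the highest sum of B cell genes (such as Cd79a, Cd79b and Ms4a1) at 223 RPKM, followed by tumor insulin_8 at 132.01 RPKM, while the other 48 tumors were at or below 17.5. In tumor X10_105 Mpo (8.93 RPKM) and Elane (2.00 RPKM) were at their highest of the 50 tumors, and Camp, Ngp and Retnlg were second. Insulin tumor 8 had 2.08 RPKM of Camp and 3.14 RPKM of Ngp, above the group medians of 0.191 and 0.0535. Tumor insulin_14 was higher for both (2.58 and 4.05 RPKM), with a sum of B cell genes of 0.667 RPKM. Vehicle tumor Untreated_194, the highest for both (10.5 and 16.5 RPKM), had a sum of 1.82 RPKM. The B cell list had r = 0.535 with Camp, 0.487 with Ngp and 0.566 with Mpo (adjusted permutation p = 0.00642, 0.0121 and 0.00374), with a rho of 0.267, 0.161 and 0.375. Without the 2 tumors farthest from the median score r was 0.194, 0.108 and 0.332, so the relation of Camp and Ngp rests on those tumors. Mpo also had r = 0.556 with the T and NK cell list (rho = 0.415) and 0.504 with the endothelium list (rho = 0.504), and r = 0.440 and 0.477 without the 2 farthest tumors. The erythroid list passed with none of the 10 members (r between 0.00102 and 0.292), and the list of general leukocyte genes with S100a9 alone (r = -0.338).

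By their correlation with the other mature neutrophil genes, S100a8, S100a9, Cxcr2 and Csf3r were closest to the label of neutrophil genes. Retnlg, Ngp and Lcn2 passed with both the mature and the granule list, and Camp with the granule list alone. Ltf passed with the granule list, and with the mature list by Pearson's r (0.339, adjusted permutation p = 0.0192) but not by Spearman's rho (0.284, adjusted permutation p = 0.0565), with r = 0.235 without the 2 farthest tumors. The genes most like Lcn2 and Ltf included the epithelial gene Esrp1, and Mpo passed with neither list (r = -0.204 with the mature list and -0.0542 with the granule list).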

How the data were processed

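Poly-A selected RNA of 50 tumors was sequenced on the Ion Proton. The authors aligned reads to GRCm38 with TopHat2 (2.0.10) and Bowtie2, used HTSeq (0.6.1) for gene counts and deposited RPKM values, which are the values used here; their DESeq2 analysis was not repeated. Within a gene the deposited RPKM values are multiples of a step, from which gene lengths, reads and library sizes were recovered: 26.7 to 51.9 M reads per tumor (median 40.9), with at least 96.55% of low values at whole reads. Each gene with a mean RPKM of at least 0.5 was tested with limma 3.58.1 (R 4.3.3, intensity trend) on log2(RPKM + 0.5), fitting the 5 groups together, and p-values were adjusted by Benjamini-Hochberg over 16733 genes, called at 0.05; fold changes on this scale understate the change of low genes. The fit was tested on simulated data. Correlations were tested by two-sided permutation (100000 resamples; numpy 2.4.6, scipy 1.17.1). Nothing says whether tumors shared litters or runs, so p-values measure the spread between tumors. The named genes are the 10 members, for each the 3 other tested genes with the highest Spearman's rho, the 10 other genes closest to the members' mean z-score, and the most and least abundant genes of lists. Some genes that this rule or the lists hold are not reported here. Of 92 list genes, 2 were matched by Ensembl ID (older symbols). Members and lists were chosen with earlier results of these data known. Alternatives were other filters, pseudocounts and scalings, no trend, robust fitting, only the groups compared, an epithelial score as a covariate and leaving out each tumor; library size as a covariate and limma voom on the recovered reads of 16149 genes (96.5%) were added after seeing the data.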

Additional observations from a re-analysis of the deposited data

Results flagged for a closer look

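In 6 of the 50 combinations of member and treatment group, the highest tumor stood apart from the other 9 by more than Dixon's 95% limit for 10 values, on the log2(RPKM + 0.5) scale. Chance gives about 1 in 20 such groups. Camp in vehicle tumor Untreated_194 was at 10.5 RPKM with the next vehicle tumor at 1.05 (gap 0.648 of the range), and Camp in tumor X10_105 at 10.3 RPKM with the next at 2.13 (gap 0.488). Mpo was at 8.93 RPKM in the same tumor X10_105, next to 2.30 (gap 0.472), and at 4.59 RPKM in tumor IGF1_158, next to 1.21 (gap 0.569). Ltf in tumor insulin_13 was at 25.2 RPKM with the next at 1.96 (gap 0.611). Csf3r in vehicle tumor Untreated_174 was at 153 RPKM with the next at 37.3 (gap 0.487). No tumor stood apart at the low end. The effect of leaving out each of these tumors on the estimates was part of the alternatives, and no member passed the test without any of them.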

How the results depend on the processing

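The count of members past the adjusted threshold was 0 in each of the 6 comparisons under all 12 alternatives (11 for any difference among the groups) and in all 50 fits that left out 1 tumor. The lowest adjusted p of a member in any of them was 0.109, for Lcn2 in the test for any difference among the 5 groups, without vehicle tumor Untreated_197. With a mean of at least 5 RPKM required, 7 of the 10 members were tested. Of the differences given singly with their estimates against vehicle, Lcn2 for glargine was the one that changed its sign: it was 0.61 with the epithelial score as a covariate and between -0.66 and 0.35 when 1 tumor was left out (0.32 without vehicle tumor Untreated_174 and 0.35 without vehicle tumor Untreated_182). Over all member estimates, the alternatives other than leaving out a tumor changed the sign of 2 members for insulin (Camp and Mpo), 1 for glargine (Lcn2), 2 for X10 (Ltf and Retnlg) and 2 for IGF1 against vehicle (Ltf and Mpo), and of 5 for X10 and IGF1 against the other groups (Csf3r, Cxcr2, Ltf, S100a8 and S100a9). The Lcn2 estimate for IGF1 against vehicle was between -4.07 and -3.06 when 1 tumor was left out, and -1.35 with the epithelial score. With that score S100a8 was at -0.49 for IGF1, and S100a9 at -0.74 and Cxcr2 at -0.50 for insulin; the cause was not tested. Of all genes, X10 against vehicle had 11 called, between 1 (library size as a covariate) and 24 (all genes with a nonzero value), and IGF1 against vehicle 1, between 0 and 1. Insulin against vehicle had 0 (at most 2), and glargine against vehicle 0 under each of these alternatives. X10 and IGF1 against the other groups had 26, between 11 and 51, and any difference among the groups 17, between 0 and 22, where leaving out a tumor is not counted. When 1 tumor was left out, the highest counts were 3 for insulin (without vehicle tumor Untreated_194), 1 for glargine (without tumor glargine_73), 21 for X10 (without tumor X10_105) and 3 for IGF1 against vehicle (without vehicle tumor Untreated_195), 131 for X10 and IGF1 against the others (without tumor IGF1_135) and 110 for any difference (without tumor IGF1_124). The number of correlated pairs of members was 33 of 45, and between 27 and 33 under the alternatives. No paired analysis was possible because no mouse number occurred in more than 1 group. Camp and Ngp had at most 3 reads in 19 and 20 of the 50 tumors, which limits what could be seen of them.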

Other observations

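Some tumors combined members in unusual ways, given here as values. Tumor IGF1_158 had the lowest S100a8 (4.49 RPKM) and S100a9 (4.56 RPKM) of its group, but was the highest IGF1 tumor for Mpo (4.59 RPKM), Camp (1.41), Ngp (1.83) and Retnlg (19.0). Tumor glargine_69 had 54 reads of Camp (2.25 RPKM), 3 reads of Ngp and 0 reads of Retnlg, and IGF1 tumor IFG1_132 had 26 reads of Camp (1.07 RPKM) and 1 read of Ngp, whereas Camp and Ngp were high together in vehicle tumor Untreated_194 and tumor X10_105. Vehicle tumor Untreated_174, the highest for 5 members, also had the highest level of each of the 6 mammary epithelium genes, with 3810 RPKM of Krt7 against a median of 6.91 over the 50 tumors, and summed levels of 1239 RPKM for other mature neutrophil genes and 1211 RPKM for neutrophil attracting and growth factor genes. Vehicle tumor Untreated_182 was the highest for Lcn2 (1674 RPKM) and second for Epcam and Cdh1, with 129 RPKM of S100a8.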
